A study of Mus musculus with 30 samples.

Results

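The genes described here are 42 markers of cells other than T cells, chosen by symbol. They comprise 26 genes of macrophages, 3 of granulocytes, 8 of the erythroid lineage and 5 of basophils and mast cells. Of the 42, 41 matched an identifier among the 55573 gene identifiers of the 3′ libraries and the 34030 named genes of the RNA-seq libraries. Ahsp matched none and was not analysed here. The counts of these genes were followed across 30 libraries of CD4 T cells sorted from mouse spleen, as a measure of RNA from other cells in the sorted populations. Values are CPM, a gene's count divided by the library's summed gene count and multiplied by 1e6.

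All animals were labelled C57BL/6 and 8 weeks old, and all libraries were made from 10 ng of total RNA. QuantSeq, a kit that reads the 3′ end of each mRNA, was used for 22 libraries in 9 groups. TH2 cells (4 libraries; genotype OTII Tg IL-4BacTg x OTII Tg) were sorted as CD4+hCD2+. TFH2 cells of the same genotype label came from a CD4+CD45.2+ PD1+ gate at 3 levels of CXCR5, with 2 libraries each at CXCR5hi, CXCR5int and CXCR5lo. TFH cells (OTII Tg) were sorted by the same gates into 3 CXCR5hi, 2 CXCR5int and 3 CXCR5lo libraries. Bcl6KO cells (Bcl6f/fCd4cre x OTII Tg) were gated CD4+hCD2+ and Il4KO cells (Il4-/- x OTII Tg) CD4+, with 2 libraries each. A further 8 libraries were made by RNA-seq: naive CD4 cells of wild-type mice gated CD4+CD62L+CD44-CD25- (2), TH2 cells of IL-4BacTg mice (2) and CXCR5hi TFH cells of OTII Tg mice (2). The remaining libraries were a single one labelled TH2 and a single one labelled CXCR5hi TFH2, both from IL-4BacTg x OTII Tg mice. OTII mice carry a transgenic T cell receptor for an ovalbumin peptide, and the Cd4cre allele of the Bcl6KO mice is driven in T cells. The labels do not say which promoter drives hCD2, a human surface protein. The gates as labelled name no macrophage, erythroid or basophil marker, so differences between the CD45.2+ PD1+ gates and the hCD2+ gate cannot be told apart from differences between the cells. The labels name no animals or batches, and p-values therefore measure only the spread between libraries, which may be technical.

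As background, macrophages of the splenic red pulp engulf aged erythrocytes and recycle their iron. They depend on the receptor CSF1R and on the transcription factor SPI-C, break down heme with HMOX1 and export iron through the transporter ferroportin, encoded by Slc40a1. Macrophages of the white pulp take up dying B cells in the germinal centre, where follicular helper T cells (TFH), marked by CXCR5, PD-1 and BCL6, also reside. Macrophages are the main source of C1q, the recognition molecule of the classical complement pathway, which is built from the products of C1qa, C1qb and C1qc. Alpha and beta globin mRNAs are abundant in erythrocyte precursors and reticulocytes, and Mcpt8, Prss34, Ms4a2, Hdc and Cpa3 encode proteases, a receptor chain and the histamine-forming enzyme of basophils and mast cells.

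Depth was 1834612 to 4442404 counts per QuantSeq library and 12561415 to 35635885 counts, over the highest-count transcript of each named gene, per RNA-seq library. All 12 T cell identity genes on a fixed list, among them Cd3e and Trac, had counts in every library, and Cd8a had no count in any QuantSeq library. Cxcr5 was at 10.6 to 139 CPM in the 14 TFH and TFH2 QuantSeq libraries and had no count in the 8 others. Among the RNA-seq libraries, 2 went against their labels. The library labelled TFH2 CXCR5hi held 1.115 CPM of Cxcr5 and 13.1 CPM of Bcl6, while the library labelled TH2 from the same cross held 135 CPM of Cxcr5 and 121 CPM of Bcl6. The 2 replicated RNA-seq TFH libraries held 438.5 and 442 CPM of Cxcr5, and the 2 replicated RNA-seq TH2 libraries held none. Both single libraries are therefore named below as labelled, and they enter no comparison. Bcl6 was at 6.73 and 26.4 CPM in the Bcl6KO libraries and at 0.390 to 13.2 CPM in the TH2 libraries. No label says whether these 3′ reads lie in the deleted part, so they do not check the genotype. Il4 was at 0 and 0.980 CPM in Il4KO and at 0 to 13.3 CPM in TH2.

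Upstream sequences are shown for 4 of the 42 genes: both adult beta globin genes, C1qc, and Prss34, a protease gene of basophils. Each is the 250 bases before the RefSeq transcription start (build GRCm38.p6), written 5′ to 3′ along the gene's strand. Capitals mark matches, on either strand, to 3 motifs: AGATAA (known from GATA factors), CCACACCC (the CACCC box) and GAGGAAGT (known from PU.1). The motifs do not overlap one another in these windows.
Hbb-bs, chr7:103827929-103828178, minus strand: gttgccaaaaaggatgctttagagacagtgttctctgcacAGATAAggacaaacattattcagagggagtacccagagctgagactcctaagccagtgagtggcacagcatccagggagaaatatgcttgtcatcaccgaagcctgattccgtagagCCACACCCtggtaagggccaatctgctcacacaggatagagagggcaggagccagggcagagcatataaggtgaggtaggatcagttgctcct
Hbb-bt, chr7:103813924-103814173, minus strand: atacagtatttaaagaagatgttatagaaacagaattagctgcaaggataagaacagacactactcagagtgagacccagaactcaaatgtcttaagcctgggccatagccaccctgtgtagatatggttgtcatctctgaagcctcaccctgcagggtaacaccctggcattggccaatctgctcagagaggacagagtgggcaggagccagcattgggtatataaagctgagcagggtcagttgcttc
C1qc, chr4:136892915-136893164, minus strand: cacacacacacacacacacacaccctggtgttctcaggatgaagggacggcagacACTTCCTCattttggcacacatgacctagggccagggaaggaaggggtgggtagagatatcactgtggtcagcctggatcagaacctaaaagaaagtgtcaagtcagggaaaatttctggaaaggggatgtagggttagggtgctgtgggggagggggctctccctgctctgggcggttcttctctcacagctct
Prss34, chr17:25298144-25298393, plus strand: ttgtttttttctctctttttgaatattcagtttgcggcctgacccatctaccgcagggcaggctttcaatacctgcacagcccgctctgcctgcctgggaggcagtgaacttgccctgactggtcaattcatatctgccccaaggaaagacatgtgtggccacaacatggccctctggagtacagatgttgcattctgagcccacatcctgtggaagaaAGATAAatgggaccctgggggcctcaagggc
The Hbb-bs window holds a GATA motif starting 210 bases and a CACCC box starting 93 bases before the start site, and neither set of letters occurs in the Hbb-bt window. The C1qc window holds the PU.1 letters on the opposite strand, shown as their reverse complement, and the Prss34 window holds a GATA motif 31 bases before the start. Over windows of 300 bases that also include 50 bases after the start, AGATAA occurs in 11.2% of 32851 RefSeq promoters, CCACACCC in 3.56% and GAGGAAGT in 3.2%. Of the 42 genes, 30 had a promoter in that table. GAGGAAGT occurred in 2 of the 21 promoters of the macrophage genes (C1qc and Ctss) and 1 of 3 of the granulocyte genes (S100a8). AGATAA was in 3 of 5 basophil promoters (Cpa3, Ms4a2 and Prss34) and 2 of 5 erythroid promoters (Alas2 and Hbb-bs). It was also in 1 of 21 macrophage promoters (Mpeg1) and 1 of 3 granulocyte promoters (S100a9). Among these promoters CCACACCC occurred only in Hbb-bs, 1 of 5 of the erythroid genes. The windows of Hba-a1, Hba-a2, C1qb and Mcpt8 were searched as well, held no match to the 3 motifs and are not shown. A match is a description of the letters only.

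The macrophage genes Csf1r, C1qa, C1qb, C1qc and Vcam1 were at or near 0 in QuantSeq TH2 libraries. They had counts in every TFH and TFH2 library, which did not hold for the whole list. Adgre1, also a defining macrophage gene, was at 2.465 to 20.6 CPM in TFH2 but had no count in 6 of the 8 TFH libraries. Lyz2 had none in 6 of the 8 TFH libraries, and Fcgr1 and Marco had none in all 8. Of the 26 macrophage genes, 21 had their highest group mean in TFH2 CXCR5hi. Csf1r, the receptor for the growth factors CSF1 and IL-34, was at 253 and 412 CPM in TFH2 CXCR5hi, at 95.05 and 267 in TFH2 CXCR5int and at 23.95 and 136 in TFH2 CXCR5lo. It was at 30.75, 25.1 and 41.7 CPM in TFH CXCR5hi, at 16.6 and 21.2 in TFH CXCR5int and at 44.1, 14.2 and 30.9 in TFH CXCR5lo. In TH2 the same gene was at 0.390, 0.337, 0 and 0 CPM, and it had no count in Bcl6KO or Il4KO. No TFH or TFH2 library overlapped the TH2 range, and only the lower TFH2 CXCR5lo library lay within the TFH range. The ratio of Csf1r in TFH2 CXCR5hi to TH2 was 1748, with a 95% counting interval of 483 to 14450, because TH2 held 2 counts in all; intervals and limits of this kind cover counting error only.

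**Figure D1:**
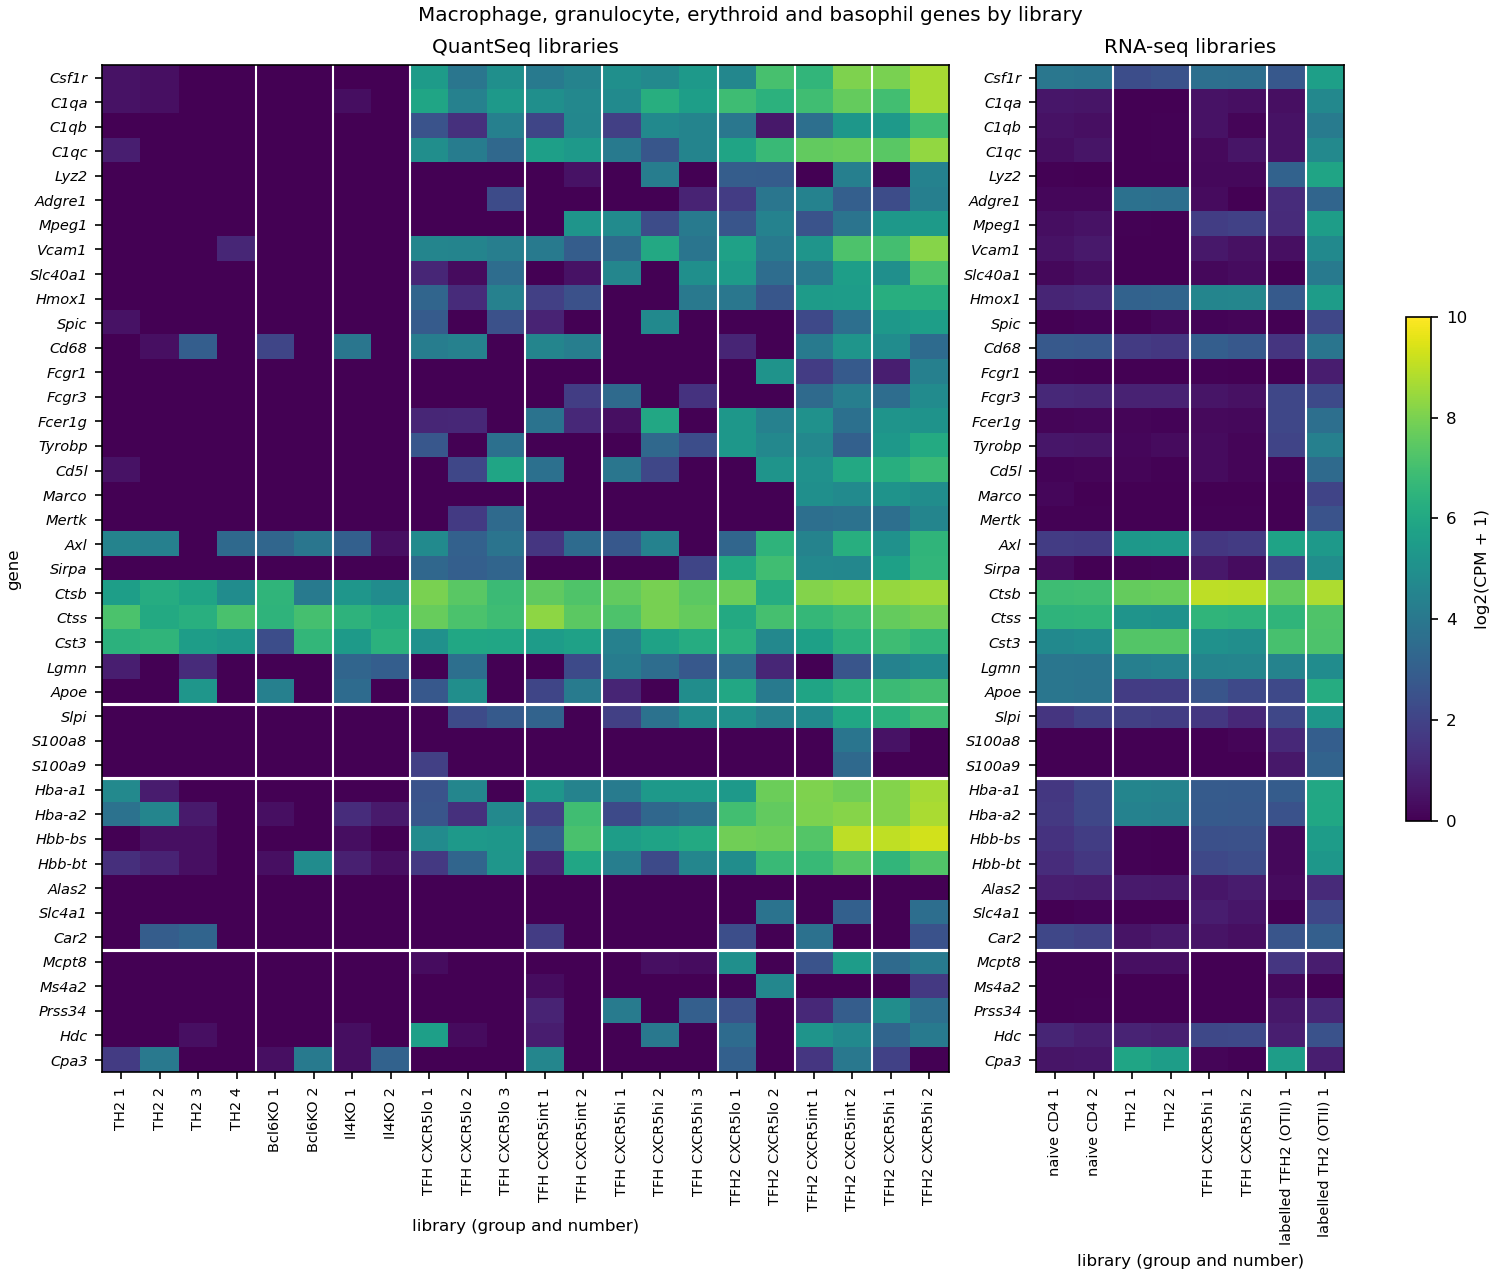
Heat map of log2(CPM + 1) for the 41 matched genes (rows) in the 22 QuantSeq libraries (left) and the 8 RNA-seq libraries (right), with white lines between groups and between gene lists. Rows from Csf1r to Sirpa are dark in the 8 TH2, Bcl6KO and Il4KO libraries, apart from Cd68 and Axl, and most are brightest in TFH2 CXCR5hi, while Ctsb, Ctss and Cst3 are above 0 in every library.

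The 3 C1q genes lie side by side on chromosome 4 (GRCm38; C1qb at 136880129 to 136886187, C1qc at 136889804 to 136893065 and C1qa at 136895917 to 136898803). C1qa was at 125 and 415 CPM in TFH2 CXCR5hi, 120 and 199 in TFH2 CXCR5int and 118 and 85.6 in TFH2 CXCR5lo. In TFH it was at 26.3, 77.1 and 48.1 CPM (CXCR5hi), 30.4 and 24.1 (CXCR5int) and 57.5, 19.9 and 40.0 (CXCR5lo), against 0.390, 0.337, 0 and 0 in TH2. Every TFH2 library was above every TFH library for this gene. C1qc was at 172 and 333 CPM in TFH2 CXCR5hi, 194 and 202 in TFH2 CXCR5int and 57.05 and 107 in TFH2 CXCR5lo. In TFH it was at 16.4, 5.435 and 21.8 CPM (CXCR5hi), 48.45 and 41.98 (CXCR5int) and 30.1, 17.4 and 9.44 (CXCR5lo). All 6 TFH2 libraries were again above all 8 TFH libraries, and in TH2 only the first library held any C1qc, at 0.780 CPM. C1qb varied more: it was at 40.8 and 121 CPM in TFH2 CXCR5hi, but at 14.8 and 0.545 in TFH2 CXCR5lo, the first inside and the second below the TFH range of 1.602 to 26.2, and had no count in TH2.

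In the fit over all 22 QuantSeq libraries, 16 of the 42 genes were higher and 0 lower in TFH2 CXCR5hi than in TH2 at an adjusted p below 0.05 (edgeR quasi-likelihood test, Benjamini-Hochberg over 14383 genes), where 1.7% of all genes tested were called higher and 1.24% lower. They were 13 macrophage genes (Csf1r, C1qa, C1qb, C1qc, Mpeg1, Vcam1, Slc40a1, Hmox1, Fcer1g, Tyrobp, Cd5l, Sirpa and Ctsb), Slpi, Hbb-bs and Hbb-bt. The adjusted p was 1.13e-15 for Csf1r, 4.43e-15 for C1qa and 1.77e-13 for C1qc. All 26 macrophage genes passed the filter on low counts, but 13 of them had no count in any TH2 library and could pass only through other groups. The median log2 difference of the 26 was 4.96 with genes absent from a group set to their bound, beside 0.0 for all genes tested. The list was chosen with earlier results of these data known, so the median and the counts given here describe the list only. The lower library of TFH2 CXCR5hi was above the highest TH2 library for 33 of the 42 genes, where 12.0% of all genes showed this.

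**Figure D2:**
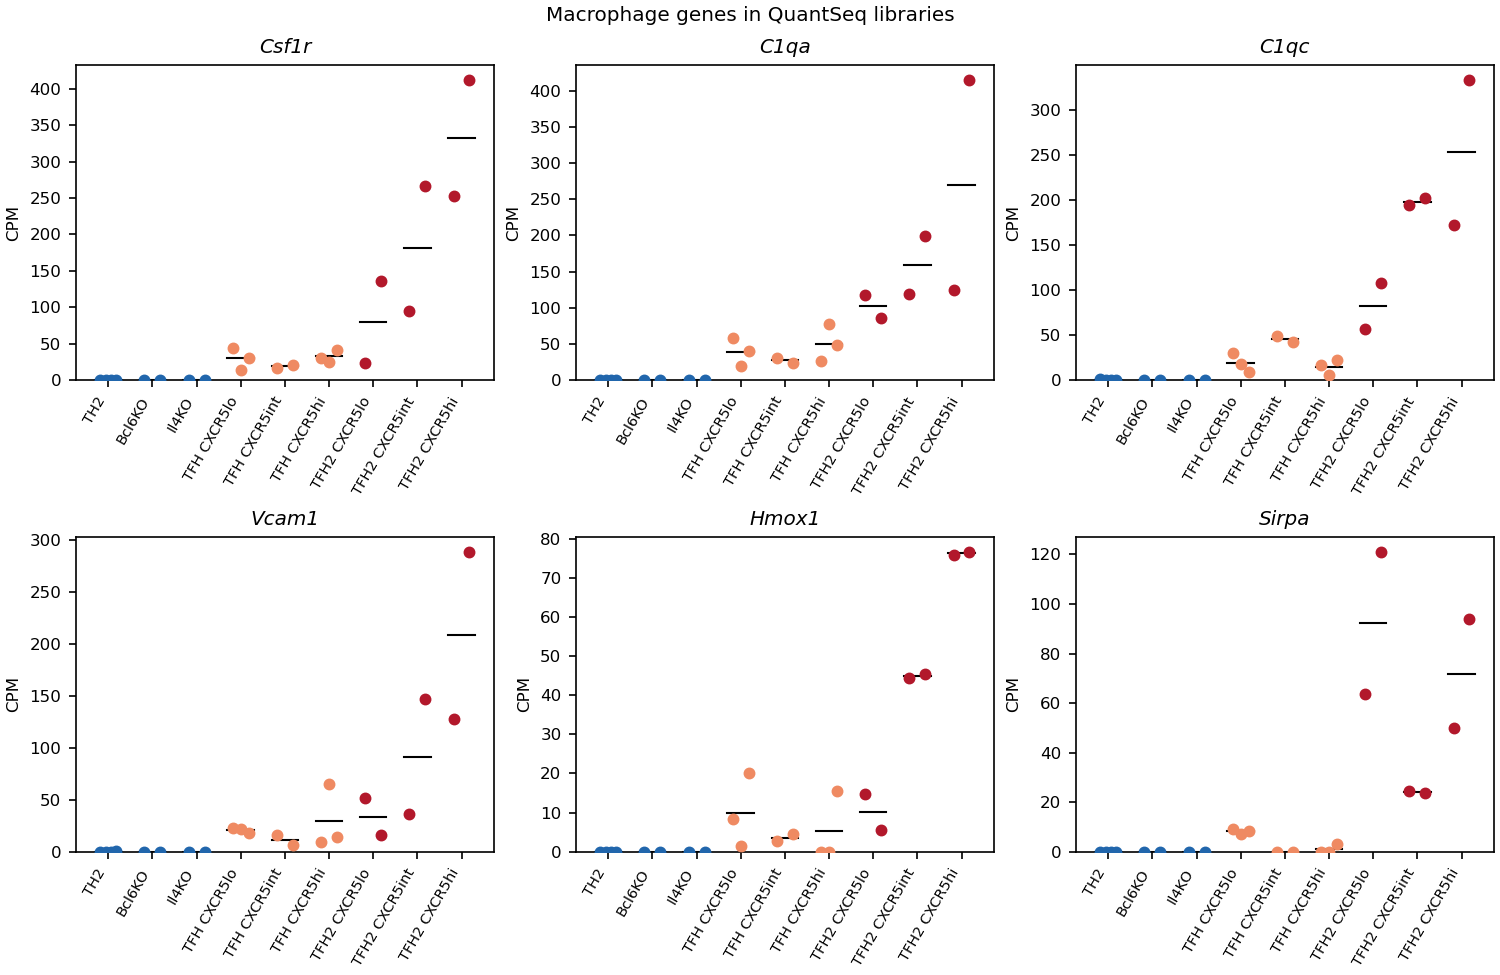
CPM of 6 macrophage genes in each of the 22 QuantSeq libraries (points), by group, with the group mean as a horizontal line. TH2, Bcl6KO and Il4KO points lie at or near 0 in every panel, and the 2 TFH2 CXCR5hi libraries lie above all TFH libraries for each of the 6 genes.

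Genes of red pulp macrophages and heme turnover were also highest in TFH2 CXCR5hi. Vcam1, an adhesion molecule of red pulp macrophages and stroma, was at 128 and 289 CPM in TFH2 CXCR5hi, 36.4 and 147 in TFH2 CXCR5int and 52.1 and 15.8 in TFH2 CXCR5lo. The 8 TFH libraries held 6.65 to 65.2 CPM of Vcam1, and the 4 TH2 libraries 0, 0, 0 and 1.08. The CXCR5hi TFH2 libraries stood above all others but TFH2 CXCR5int, and the CXCR5lo ones lay within the TFH range. Hmox1, heme oxygenase, was at 75.9 and 76.6 CPM in TFH2 CXCR5hi, 44.5 and 45.5 in TFH2 CXCR5int, 14.8 and 5.45 in TFH2 CXCR5lo and 0 to 20.2 across TFH. The 4 CXCR5hi and CXCR5int TFH2 libraries lay above every TFH library, and TH2 had no count, which sets the difference of TFH2 CXCR5hi from TH2 at at least 63.6-fold (3 counts per empty library; adjusted p = 0.00568). Slc40a1, which exports iron, was at 30.7 and 142 CPM in TFH2 CXCR5hi and at 0 to 30.25 across TFH, at least 72.05-fold above TH2 (adjusted p = 0.0027). The calls of Slc40a1 and C1qb against TH2 were lost without TFH2 CXCR5hi replicate 2, the higher library for both, with adjusted p of 0.0781 and 0.0625. Cd5l, a secreted protein of tissue macrophages, was at 75.5 and 109.5 CPM in TFH2 CXCR5hi and at 0.390, 0, 0 and 0 in TH2 (adjusted p = 0.0063). It was at 0 to 58.3 CPM across TFH and had no count in 1 of the 6 TFH2 libraries. Spic, the red pulp transcription factor gene, was at 38.8 and 48.0 CPM in TFH2 CXCR5hi, 3.64 and 11.7 in TFH2 CXCR5int and 0 in TFH2 CXCR5lo. Its range across TFH was 0 to 26.2 CPM, and its adjusted p for TFH2 CXCR5hi against TH2 was 0.19.

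Receptors and signalling adaptors of phagocytes were less even between libraries. Sirpa, which encodes the receptor for the "do not eat me" protein CD47, was at 50.1 and 93.8 CPM in TFH2 CXCR5hi, 24.7 and 23.6 in TFH2 CXCR5int and 63.7 and 121 in TFH2 CXCR5lo. Across TFH it was at 0 to 9.04 CPM, and TH2 had no count, a difference of TFH2 CXCR5hi from TH2 of at least 59.97-fold (adjusted p = 0.00128). The CXCR5lo and CXCR5hi TFH2 libraries overlapped for Sirpa, and all 6 TFH2 libraries were above the TFH range. Tyrobp, the adaptor DAP12, was at 39.2 and 67.4 CPM in TFH2 CXCR5hi and 0, 9.51 and 4.215 in TFH CXCR5hi (TFH2 CXCR5hi against TH2, adjusted p = 0.0265). Fcer1g, the shared Fc receptor gamma chain, was at 34.7 and 33.7 CPM in TFH2 CXCR5hi and at 0.342, 63.5 and 0 in TFH CXCR5hi, where 1 library held nearly all of it (TFH2 CXCR5hi against TH2, adjusted p = 0.033). Mpeg1, which encodes a pore-forming protein of phagocytes, was at 38.8 and 42.5 CPM in TFH2 CXCR5hi (adjusted p = 0.0427). The calls of Mpeg1, Fcer1g and Tyrobp were lost in 8 of 26, 8 of 25 and 6 of 26 alternative fits, among them each fit without 1 TH2 library. Marco and Mertk, a scavenger receptor and a receptor for dying cells, were seen at 28.6 to 34.3 and 11.7 to 22.35 CPM in TFH2 CXCR5hi, with adjusted p of 0.127 and 0.247 against TH2. The Fc receptor genes Fcgr1 and Fcgr3, the F4/80 gene Adgre1 and the lysozyme gene Lyz2 reached at most 33.8 CPM in any QuantSeq library and did not pass.

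Ctsb, Ctss and Cst3, which encode lysosomal proteases and a protease inhibitor, had counts in every library, TH2 included. Ctsb, cathepsin B, was at 341 and 375 CPM in TFH2 CXCR5hi, 192, 245 and 180 in TFH CXCR5hi and 47.2, 71.9, 56.0 and 28.1 in TH2. Its log2 difference was 2.78 ± 0.44 (SE; adjusted p = 2.22e-06) for TFH2 CXCR5hi and 2.00 ± 0.41 (adjusted p = 0.000354) for TFH CXCR5hi against TH2, and none of these 3 groups overlapped. Ctss, cathepsin S, was at 196 and 230 CPM in TFH2 CXCR5hi and 66.8 to 142 in TH2 (log2 difference 0.97 ± 0.44, adjusted p = 0.33), and Cst3, cystatin C, differed by 0.65 ± 0.75 (adjusted p = 0.822). Ctsb, Ctss and Cst3 together made up 79.8% to 95.0% of the summed macrophage CPM in TH2 and 21.3% to 32.6% in TFH2 CXCR5hi. Axl, Apoe, Cd68 and Lgmn were present in some TH2 libraries and did not pass against TH2: Apoe was at 111 and 130 CPM in TFH2 CXCR5hi and at 0, 0, 37.5 and 0 in TH2.

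Summed over the 23 macrophage genes other than Ctsb, Ctss and Cst3, TFH2 CXCR5hi libraries held 1356 and 2580 CPM, TFH2 CXCR5int 810 and 1371 and TFH2 CXCR5lo 562 and 746. The sums were 159.5 to 355 CPM across the 8 TFH libraries and 10.8 to 45.75 in TH2. Every TFH2 library was above every TFH library, and every TFH library above every TH2 library. The leaving out of the 3 genes was chosen after seeing the data; over all 26 genes the sums were 2010 and 3278 CPM in TFH2 CXCR5hi and 216 to 299 in TH2. In sorted bulk samples, more cells of a type and more RNA per cell cannot be told apart.

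**Figure D3:**
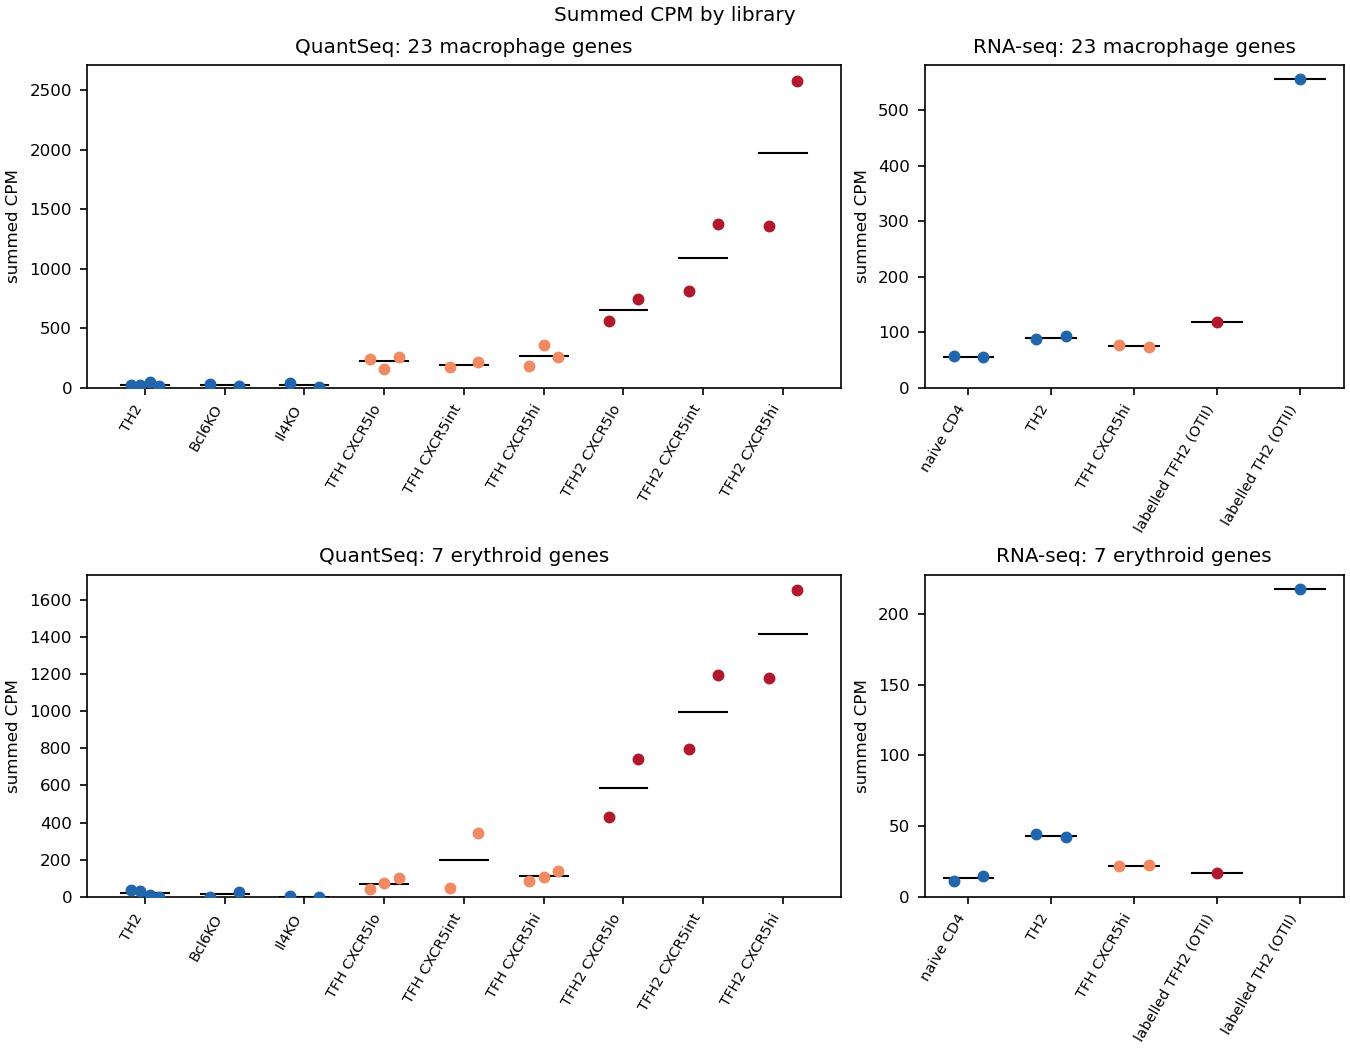
Summed CPM of 23 macrophage genes (top, all but Ctsb, Ctss and Cst3) and 7 erythroid genes (bottom) in each QuantSeq (left) and RNA-seq (right) library, with the group mean as a line; the vertical scales differ between panels. The 6 TFH2 QuantSeq libraries lie above all TFH libraries in both rows, and in RNA-seq the single library labelled TH2 from the IL-4BacTg x OTII cross lies highest in both.

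In TFH CXCR5hi against TH2, 11 of the 42 genes were higher and 0 lower, where 2.05% of genes tested were called higher and 1.46% lower. They were Csf1r, C1qa, C1qb, C1qc, Vcam1, Slc40a1, Fcer1g, Ctsb, Slpi, Hbb-bs and Hbb-bt. The ratio of C1qa was 261 (95% counting interval 72.0 to 2164) and that of Csf1r 174 (47.9 to 1445), each against 2 counts in TH2. In a fit on only those groups 3 of the 42 were called, and the calls of Csf1r (adjusted p = 0.0515), C1qc (0.239), Vcam1 (0.111) and Hbb-bt (0.439) were among those lost. The call of Fcer1g was lost without TFH CXCR5hi replicate 2 or any TH2 library (adjusted p up to 0.742), C1qb without TFH2 CXCR5hi replicate 2 or TH2 replicate 2 or 3, Slc40a1 without TFH2 CXCR5hi replicate 2, and Hbb-bt without TFH CXCR5hi replicate 3. TFH2 CXCR5hi and TFH CXCR5hi share the TH2 libraries as controls, so these 2 sets of calls are not independent.

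Within the CXCR5hi gate, TFH2 against TFH gave calls for 2 of the 42 genes, both higher, where 0.0487% of genes tested were called higher and 0.0209% lower. C1qc was higher in TFH2 by 4.07 ± 0.88 on the log2 scale (SE; adjusted p = 0.0335), at 252.5 ± 113 CPM (SD, n = 2) against 14.6 ± 8.35 (SD, n = 3). Hbb-bs was higher by 3.36 ± 0.67 (adjusted p = 0.0433), at 585 ± 85.6 CPM (SD, n = 2) against 55.7 ± 9.93 (SD, n = 3). The C1qc call was lost without TFH CXCR5hi replicate 1 or 2 or TFH2 CXCR5hi replicate 2, with adjusted p up to 0.414. The Hbb-bs call was lost without any of the 3 TFH CXCR5hi libraries or TFH CXCR5lo replicate 3, with adjusted p up to 0.237. Csf1r, higher by 3.32 ± 0.79, had an adjusted p of 0.0548. The 2 TFH2 libraries were both above the 3 TFH libraries for 29 of the 42 genes, where 10.1% of all genes showed this. DESeq2 called 4 of the 42.

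At the other gates no gene of the 42 was called between TFH2 and TFH. For CXCR5int the share of all genes called higher was 0.0%, 10 of the 42 were higher and 1 (Ctss) lower at an unadjusted p below 0.05 (1.91% and 1.39% of all genes), and DESeq2 called 2. For CXCR5lo 0.0556% of genes were called higher and 0.0765% lower, 6 of the 42 were higher at an unadjusted p below 0.05 (3.18% of all genes), and DESeq2 called 1. Csf1r differed by 3.22 ± 0.92 (adjusted p = 0.655) at CXCR5int and by 1.33 ± 0.76 (adjusted p = 0.756) at CXCR5lo. Both TFH2 libraries were above all TFH libraries for 26 of the 42 genes at CXCR5int (16.2% of all genes) and 11 at CXCR5lo (9.8%). Ctss was the member that lay lower in TFH2 at CXCR5int, at 101 and 123 CPM against 312 and 180 in TFH. Hbb-bs at CXCR5lo was at 228 and 213 CPM in TFH2 and at 27.7, 40.3 and 38.1 in TFH, a log2 difference of 2.55 ± 0.66 (adjusted p = 0.202) with no overlap.

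**Figure D4:**
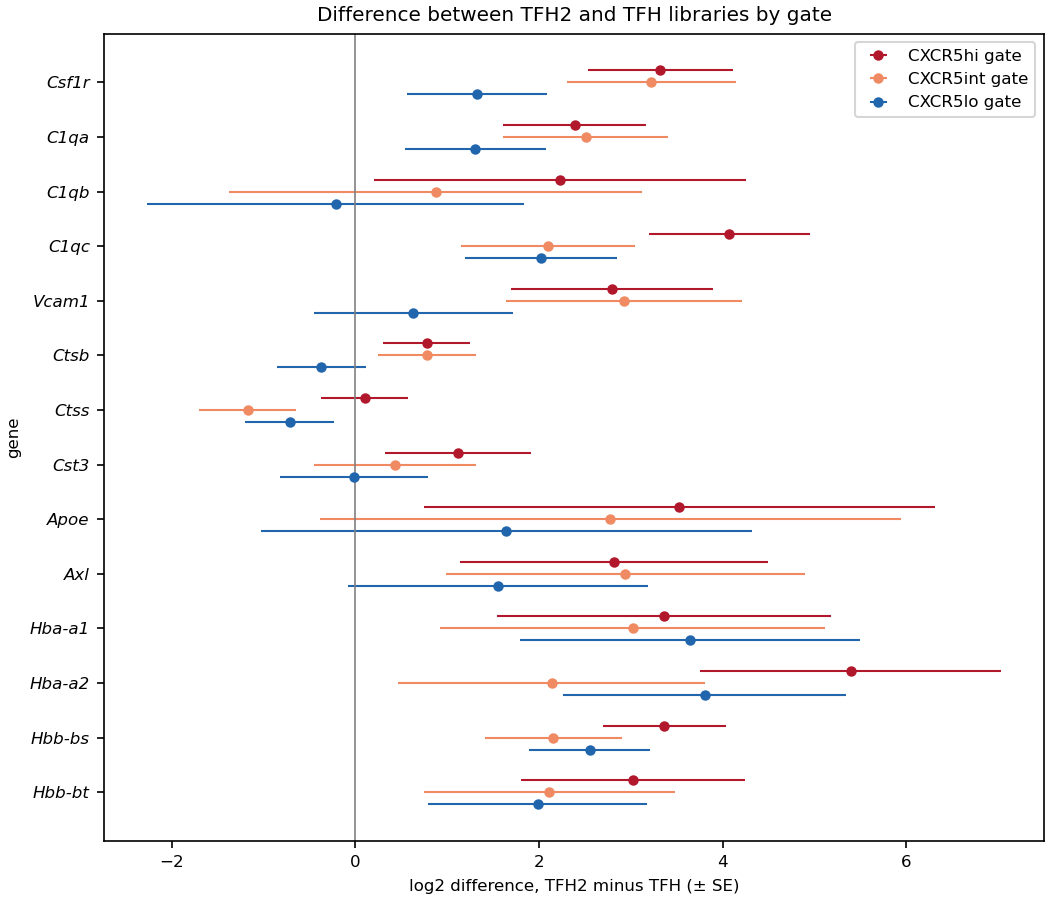
Log2 difference between TFH2 and TFH QuantSeq libraries (horizontal axis; bars are ± SE of the edgeR fit) for 10 macrophage and 4 globin genes (vertical axis) at the CXCR5hi, CXCR5int and CXCR5lo gates. The 4 globin genes lie above 0 at all 3 gates, C1qc is the highest of the 10 macrophage genes at CXCR5hi, and Ctss lies below 0 at CXCR5int and CXCR5lo.

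Between CXCR5 gates the sums over the 26 macrophage genes in TFH2 were 2010 and 3278 CPM at CXCR5hi, 1242 and 1892 at CXCR5int and 926 and 975 at CXCR5lo, without overlap, but no gene was called. In TFH2, CXCR5hi was above CXCR5lo in both libraries for 24 of the 42 genes, where 15.0% of all genes were, and above CXCR5int for 17, where 12.4% were. The edgeR test called 0 of the 42 in either comparison, where 0.0487% of genes were called higher and 0.104% lower in CXCR5hi than in CXCR5lo, and 0.0% higher and 0.0417% lower than in CXCR5int. At an unadjusted p below 0.05 the counts were 6 for CXCR5hi against CXCR5lo (Csf1r, Vcam1, Spic, Marco, Ctsb and Ctss; 2.26% of all genes were higher) and 0 against CXCR5int (0.779%), and DESeq2 called 0 in both. In TFH, CXCR5hi against CXCR5lo also gave 0 calls (0.0278% of all genes were called higher and 0.111% lower), with 3 genes higher and 1 lower at an unadjusted p below 0.05 (2.98% and 3.09% of all genes) and 0 by DESeq2. The difference between the 2 gate differences, tested directly, gave 0 calls (0.0139% of all genes), 2 genes at an unadjusted p below 0.05 (Cd68 and Mertk; 2.91% of all genes) and 0 by DESeq2. For Csf1r that difference was 1.99 ± 1.11 on the log2 scale (adjusted p = 0.92). Marco was seen in both CXCR5hi and both CXCR5int TFH2 libraries, at 26.3 to 34.3 CPM, and in no other QuantSeq library.

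Globin genes held most of the erythroid counts and were highest in TFH2. Hbb-bs, an adult beta globin, was at 524 and 645 CPM in TFH2 CXCR5hi, 157 and 506.5 in TFH2 CXCR5int and 228 and 213 in TFH2 CXCR5lo. In TFH it was at 46.1, 55.0 and 65.95 CPM (CXCR5hi), 6.67 and 140 (CXCR5int) and 27.7, 40.3 and 38.1 (CXCR5lo), and in TH2 at 0, 0.337, 0.3315 and 0. Every TFH2 library was above every TFH library, although the second TFH CXCR5int library came close to the lowest TFH2 library. Against TH2 the ratio of Hbb-bs was 3054 for TFH2 CXCR5hi (95% counting interval 845 to 25230; adjusted p = 9.88e-12) and 295.5 for TFH CXCR5hi (81.4 to 2446; adjusted p = 1.2e-08). Hbb-bt, the other adult beta globin gene, was at 94.1 and 157 CPM in TFH2 CXCR5hi and 1.56, 1.01, 0.3315 and 0 in TH2, a log2 difference of 7.27 ± 1.31 (adjusted p = 7.49e-05). The 300-base promoter windows of this pair were identical at 78.2% of aligned bases, and their transcripts at 93.1%.

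The alpha globin genes Hba-a1 and Hba-a2 were also highest in TFH2 but did not pass against TH2. Hba-a1 was at 279 and 406 CPM in TFH2 CXCR5hi, 17.1, 41.1 and 40.2 in TFH CXCR5hi and 25.35, 0.675, 0 and 0 in TH2 (TFH2 CXCR5hi against TH2, log2 difference 5.67 ± 1.78, adjusted p = 0.168). Hba-a2 was at 280 and 429 CPM in TFH2 CXCR5hi and 12.5, 22.3, 0.663 and 0 in TH2 (5.26 ± 1.45, adjusted p = 0.0814). Their highest-count transcripts were 99.8% identical over aligned bases, with a shared run of 415 bases, so reads cannot be assigned firmly to one or the other. Summed over both genes, alpha globin in the first 2 TH2 libraries (37.8 and 22.9 CPM) lay within the TFH range of 10.1 to 142 CPM. Beta globin in those 2 TH2 libraries was at 1.56 and 1.35 CPM.

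**Figure D5:**
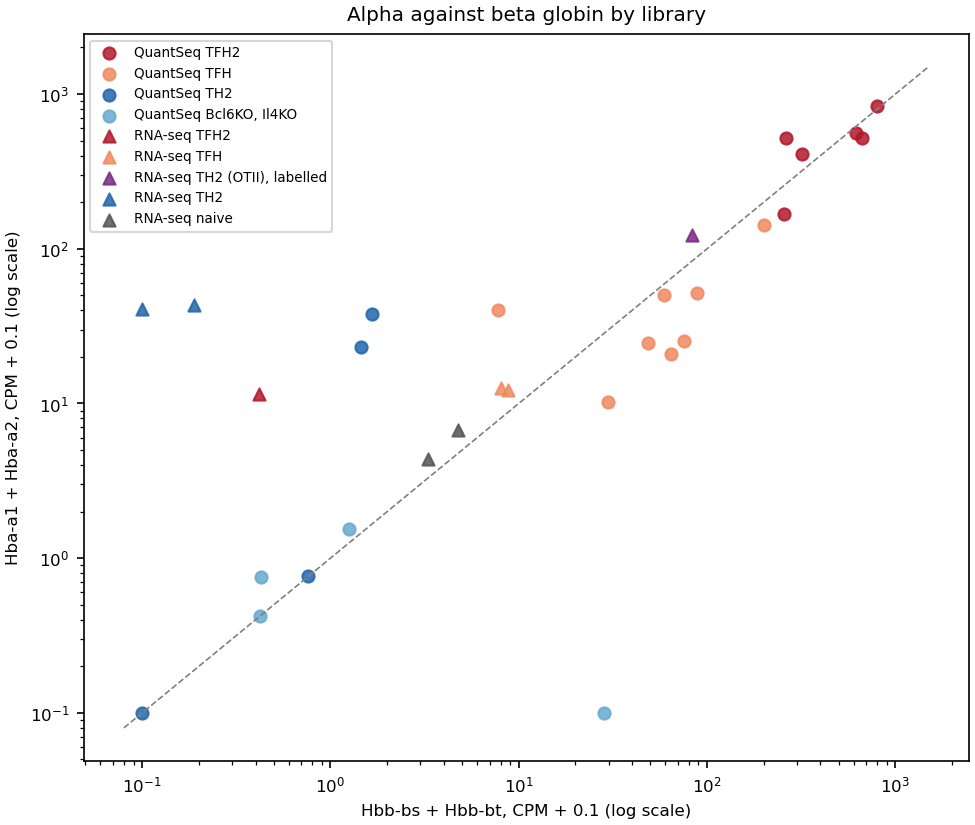
Summed alpha globin (Hba-a1 and Hba-a2, vertical axis) against summed beta globin (Hbb-bs and Hbb-bt, horizontal axis), both as CPM + 0.1 on log scales, for each of the 30 libraries (circles, QuantSeq; triangles, RNA-seq), with a dashed line of equal values. The TFH2 QuantSeq libraries lie at the upper right near the line, and the 2 replicated RNA-seq TH2 libraries, at 40.8 and 43.2 CPM of alpha globin, lie far to the left of it.

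Within a library, the ratio of alpha to beta globin counts was 0.650 to 1.985 in the 6 TFH2 libraries and 0.323 to 0.8555 in 7 of the 8 TFH libraries. The first TFH CXCR5int library, at 5.26, was the exception among TFH. In the first 2 TH2 libraries the ratio was 24.25 and 17.0, and the second Bcl6KO library held 58 beta globin counts and no alpha globin count. The remaining erythroid genes gave little signal: Alas2, the first enzyme of erythroid heme synthesis, had no count in any QuantSeq library. Slc4a1, the erythrocyte anion exchanger band 3, was seen in 1 library of each TFH2 gate at 7.43 to 13.1 CPM and in no TFH library, and Car2, a carbonic anhydrase, reached at most 12.1 CPM. Summed erythroid CPM was 1177 and 1652 in TFH2 CXCR5hi, 40.0 to 343 across TFH and 0 to 39.4 in TH2.

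Of the granulocyte genes, Slpi, a protease inhibitor of neutrophils, macrophages and epithelium, was at 82.8 and 117 CPM in TFH2 CXCR5hi, 26.3 and 61.2 in TFH2 CXCR5int and 32.75 and 20.2 in TFH2 CXCR5lo. The 8 TFH libraries held 0 to 28.3 CPM, and no TH2, Bcl6KO or Il4KO library had a count. Against TH2, Slpi was at least 83.2-fold higher in TFH2 CXCR5hi (adjusted p = 0.000852) and at least 12.1-fold higher in TFH CXCR5hi (adjusted p = 0.0102). S100a8 and S100a9, which encode the calprotectin subunits of neutrophils and did not pass the filter, were at 14.0 and 9.68 CPM in the second TFH2 CXCR5int library and at or below 2.74 CPM elsewhere in QuantSeq.

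Basophil genes were low everywhere in QuantSeq. None was called in TFH2 CXCR5hi against TH2 by edgeR, 3 of the 5 were higher at an unadjusted p below 0.05 (8.09% of all genes), and DESeq2 called 0. Mcpt8, the basophil granule protease, was at 10.1 and 15.75 CPM in TFH2 CXCR5hi, 4.85 and 45.0 in TFH2 CXCR5int and 31.0 and 0 in TFH2 CXCR5lo. It was at 0 to 0.340 CPM in all other QuantSeq libraries, and its adjusted p for TFH2 CXCR5hi against TH2 was 0.213 (at least 10.8-fold higher). Prss34, whose upstream sequence is shown above, was at 28.7 and 11.7 CPM in TFH2 CXCR5hi and 16.7, 0 and 7.19 in TFH CXCR5hi, and had no count in TH2 (adjusted p = 0.214). Hdc, histidine decarboxylase, was at 8.48 and 15.75 CPM in TFH2 CXCR5hi but at 49.6 in 1 TFH CXCR5lo library. Its highest group mean was in TFH2 CXCR5int, at 30.7 ± 6.86 CPM (SD, n = 2). The mean in TFH CXCR5int was 0.371 CPM (TFH2 against TFH at this gate, adjusted p = 0.905). Cpa3, carboxypeptidase A3, was scattered over the groups, at 2.83 and 0 CPM in TFH2 CXCR5hi, 2.02 and 15.1 in TFH2 CXCR5int and 7.395 and 0 in TFH2 CXCR5lo. It was at 23.2 and 0 CPM in TFH CXCR5int, 0 in the 6 other TFH libraries, 2.34, 15.5, 0 and 0 in TH2, 0.320 and 16.1 in Bcl6KO and 0.287 and 7.84 in Il4KO. Ms4a2, the beta chain of the high-affinity IgE receptor, did not pass the filter and reached 23.4 CPM in 1 TFH2 CXCR5lo library. Summed over the 5 genes, basophil CPM was 23.4 to 92.7 in TFH2, 0 to 49.85 in TFH and 0 to 15.5 in TH2. The TFH range overlapped both others, and every TFH2 library was above every TH2 library.

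The Bcl6KO and Il4KO libraries also held little of these RNAs. The edgeR test called 0 of the 42 genes between Bcl6KO and TH2 (0.0139% of all genes were called higher and 0.00695% lower) and 0 between Il4KO and TH2 (0.00695% higher and 0.0626% lower), and DESeq2 called 0 in both. At an unadjusted p below 0.05, Hbb-bt was higher and Hba-a2 lower in Bcl6KO (3.05% and 2.77% of all genes), and no gene of the 42 passed in Il4KO (3.12% and 2.22%). Csf1r, C1qb, C1qc, Vcam1, Slc40a1, Hmox1 and Sirpa had no count in any of these 4 libraries. The summed CPM of the 23 macrophage genes was 14.2 and 31.7 in Bcl6KO and 40.8 and 7.18 in Il4KO.

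In RNA-seq the 6 replicated libraries held little RNA of several macrophage genes, though not of Csf1r or, in TH2, of Adgre1. C1qa was at 0.504 and 0.477 CPM in naive cells, 0.4 and 0.313 in TFH CXCR5hi and 0 and 0 in TH2, and Lyz2, Fcgr1, Spic, Marco and Mertk were at or below 0.156 CPM in all 6. Csf1r was nonetheless at 14.6 and 13.9 CPM in naive cells, 11.45 and 11.3 in TFH and 4.15 and 4.69 in TH2. Its count was 10.7 to 12.7 times the summed C1q count in naive and TFH libraries, against 0.126 to 0.749 times in the 14 TFH and TFH2 QuantSeq libraries. The kits sample transcripts differently, so this ratio is not compared between them by a test. Between RNA-seq TFH and TH2, 17 of the 42 genes were higher and 8 lower, where 30.8% of genes tested were called higher and 31.0% lower. Many of these calls rest on levels below 1 CPM, such as C1qa at 0.356 ± 0.062 CPM in TFH (SD, n = 2) and 0 in TH2, and the biological coefficient of variation of this fit was 0.0879, beside 1.26 in QuantSeq. Against naive cells, TH2 had 10 genes higher and 14 lower (33.9% and 31.9% of all genes) and TFH had 11 higher and 6 lower (29.6% and 27.6%).

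Some genes of the list were highest in 1 replicated RNA-seq group. In RNA-seq TH2, 15 of the 26 macrophage genes had counts in both libraries and 7 in neither. Adgre1, the F4/80 gene, was at 12.3 and 11.7 CPM in TH2, 0.126 and 0.140 in naive cells and 0.218 and 0 in TFH, while Lyz2, Vcam1, Slc40a1, Marco and Mertk were among the 7 with no count in TH2. Its log2 difference between TH2 and naive cells was 6.45 ± 0.39 (adjusted p = 1.19e-07). Axl, a receptor for dying cells, was at 38.9 and 40.8 CPM in TH2 and at 2.07 to 2.42 in naive cells and TFH (TH2 against naive, 4.11 ± 0.11, adjusted p = 7.15e-11). Cpa3 was at 58.5 and 46.8 CPM in TH2, 0.472 and 0.533 in naive cells and 0.109 and 0.0521 in TFH (TH2 against naive, 6.71 ± 0.19, adjusted p = 1.18e-10). Beside it in TH2, Ms4a2 and Prss34 had no count and Mcpt8 was at 0.313 and 0.321 CPM. Cst3 was at 160.5 and 157 CPM in TH2 and 25.8 to 32.1 in the other 2 groups, and Ctsb was highest in TFH, at 506 and 503 CPM against 198.5 and 202 in TH2. Hmox1 was at 22.1 and 22.8 CPM in TFH, 7.86 and 8.42 in TH2 and 1.04 and 1.21 in naive cells, with no overlap.

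Alpha globin in RNA-seq TH2 appeared without beta globin. Hba-a1 was at 22.6 and 21.4 CPM in TH2, 2.11 and 3.34 in naive cells and 6.33 and 6.05 in TFH, and Hba-a2 at 20.6 and 19.4, 2.17 and 3.34, and 6.18 and 5.99 in the same order. Hbb-bs was at 0.0447 and 0 CPM in TH2, 1.76 and 2.55 in naive cells and 4.44 and 4.64 in TFH. TH2 was thus highest for alpha and lowest for beta globin. The log2 difference between TH2 and naive cells was 3.02 ± 0.17 for Hba-a1 (adjusted p = 4.26e-08) and -6.35 ± 0.51 for Hbb-bs (adjusted p = 7.07e-07). The transcripts counted were of like length, 699 bases for Hba-a1 and 628 for Hbb-bs. Alpha globin counts were 1.35 to 1.58 times the beta globin counts in the 4 naive and TFH libraries, and 967 and 1018 alpha counts stood beside 2 and 0 beta counts in TH2.

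The 2 single RNA-seq libraries differed widely. The library labelled TH2 from the IL-4BacTg x OTII cross, which carries Cxcr5 and Bcl6, held 49.25 CPM of Csf1r, 24.3 of C1qa, 56.7 of Lyz2, 46.7 of Mpeg1, 44.6 of Hbb-bs and 62.4 of Hba-a1. All 26 macrophage genes had counts in it, and 22 of them and 7 of 7 erythroid genes had their highest RNA-seq mean there. Lists of other cells, described below, were also high in it. The summed B cell list was at 2053 CPM, the dendritic cell list at 114 and the neutrophil list at 83.1. Means of the replicated RNA-seq groups were at most 381, 1.54 and 22.6 CPM for these lists. Cd8a was at 7.86 CPM, against at most 0.4 in the replicated libraries. In the same library the ratio of Csf1r to C1q counts was 0.748, below the 10.7 to 12.7 of the naive and TFH RNA-seq libraries. The ratio of alpha to beta globin counts in this library was 1.48, inside the range of 1.35 to 1.58 of the naive and TFH RNA-seq libraries. The library labelled TFH2 CXCR5hi, which lacks Cxcr5, held 45.8 CPM of Cpa3, 55.25 of Axl, 0.318 of C1qa and 0.159 of Hbb-bs, with 11.4 CPM of alpha globin in sum. It was the 1 RNA-seq library with counts for all 5 basophil genes, Mcpt8 at 1.99 and Ms4a2 at 0.159 CPM among them. With 1 library each, these values have no replicate check. Mitochondrial genes held 4.38% of counts in the library labelled TH2 and 3.65% in the one labelled TFH2 CXCR5hi. They held 0.0% in each of the replicated RNA-seq libraries. Whether the single libraries were prepared or counted differently was not tested, which limits the ranking across the RNA-seq groups.

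Lists of other genes of the same cells, and of other cells, were examined alongside. Of 24 other macrophage genes, 15 passed the filter, of which 2 were called higher and 0 lower in QuantSeq TFH2 CXCR5hi than in TH2. Cd163, the haemoglobin scavenger receptor gene, was among the 2, at 48.9 CPM on average against 0. At an unadjusted p below 0.05, 11 of the 15 were higher and 1 lower (8.09% and 4.64% of all genes), and DESeq2 called 4. Of 22 other erythroid genes 7 passed and none was called, with 2 higher and 0 lower at an unadjusted p below 0.05 and 0 by DESeq2. Of 14 other basophil and mast cell genes 5 passed and none was called, with 0 at an unadjusted p below 0.05 and 0 by DESeq2. No gene was called, by edgeR or DESeq2, among 14 neutrophil, 10 dendritic cell and 10 endothelial and stromal genes (3 tested of each). At an unadjusted p below 0.05, 1 neutrophil gene was higher, and 1 dendritic cell gene was higher and 1 lower. No endothelial or stromal gene passed that threshold. Of 10 monocyte genes Ly6c2 was called lower, and of 8 platelet genes Itgb3, at 325.5 to 623 CPM in TH2, was called lower. Without adjustment, 2 monocyte genes were higher and 2 lower, and 1 platelet gene was higher and 1 lower. The shares of all genes were again 8.09% higher and 4.64% lower. In TFH CXCR5hi against TH2, 0 of the 15 other macrophage genes tested were called higher and 1 lower. At an unadjusted p below 0.05, 8 of them were higher and 1 lower (8.43% and 6.61% of all genes), and DESeq2 called 3. In TFH2 against TFH at CXCR5hi, 0 of the 15 were called, with 2 higher at an unadjusted p below 0.05 (2.73% of all genes) and 0 by DESeq2.

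Of 14 B cell and plasma cell genes, 9 were tested and 3 were called higher in TFH2 CXCR5hi than in TH2. They were Igkc, the kappa light chain, Pax5 and H2-Aa, a class II gene that macrophages also express. At an unadjusted p below 0.05, 7 of the 9 were higher and 0 lower (8.09% and 4.64% of all genes), and DESeq2 called 2. Igkc was at 300 and 617 CPM in TFH2 CXCR5hi, 58.2 and 227 in TFH2 CXCR5int, 51.2 and 358 in TFH2 CXCR5lo, 22.4 to 65.4 across TFH and 0 to 0.675 in TH2. It was also higher in TFH2 than in TFH at CXCR5hi (log2 difference 3.44 ± 0.67, adjusted p = 0.0209). The summed B cell list was at 702 and 1140 CPM in TFH2 CXCR5hi, 179.5 to 292.5 across TFH and 60.5 to 168 in TH2. In TFH2 CXCR5hi 8 and 9 of the 14 genes had counts, against 1 to 5 in TH2, while Ms4a1, Cd79a, Blk and Fcrla had no count in either TFH2 CXCR5hi library. In RNA-seq the summed list was higher in naive cells (371 and 391 CPM) than in TFH (291.5 and 292), while the summed macrophage list was lower (291 and 295 CPM against 705.5 and 693). Ctsb, Ctss and Cst3 made up 80.4% to 81.4% of that macrophage sum in naive cells and 89.2% to 89.4% in TFH. The other 23 macrophage genes summed to 57.0 and 54.7 CPM in naive cells and 76.2 and 73.6 in TFH. The summed C1q genes went the other way, at 1.196 and 1.291 CPM in naive cells and 0.982 and 0.886 in TFH. The part of B cell RNA in the macrophage and erythroid results was not tested. Of the 12 T cell identity genes, 3 (Cd247, Cd4 and Trbc2) were called higher in TFH2 CXCR5hi than in TH2 and none lower. At an unadjusted p below 0.05, 7 of the 12 were higher and 0 lower, and DESeq2 called 4.

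Over the 22 QuantSeq libraries, the other genes whose log2(CPM + 1) followed the summed macrophage CPM most closely included Igkc (Pearson r = 0.93), Vdr (0.924), Nav2, Art2a-ps, Smtn, Fcna, Cd160, Asb2 and Sostdc1 (0.888). Fcna, a ficolin gene of macrophages, was at 22.9 to 111 CPM in TFH2, 0 to 28.7 in TFH and 0 in the 8 other libraries. For the summed erythroid CPM the closest were Asb2 (0.914), Vdr (0.894), Cd82 (0.886), Igkc (0.885) and Marcks (0.87). The libraries share groups and gates, so these values describe likeness and carry no test.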

How the data were processed

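Total RNA of sorted splenic CD4 T cells was read in 22 QuantSeq and 8 RNA-seq libraries. The authors deposited raw read counts, per gene for QuantSeq and per transcript for RNA-seq, per the file headers. Per the submitters' processing notes, featureCounts 1.6.0, the aligners STAR 2.7.0c and Bowtie 0.12.2, and the builds mm9, mm10 and GRCm38.p6 were used; no source used here ties them to one kit or the other. Identifiers were named from GENCODE M21. QuantSeq identifiers without a name (93) held 0.0062% of counts and RNA-seq transcripts without a name 14.66%; these were left out. For RNA-seq the transcript with the highest summed count stood for each gene.

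Counts were fitted with edgeR 4.0.16 (R 4.3.3; TMM, filterByExpr with a minimum count of 10, robust quasi-likelihood test), once over all 22 QuantSeq libraries (9 groups, 14383 genes) and once over all 8 RNA-seq libraries (5 groups, 17013 genes). P-values were adjusted by Benjamini-Hochberg over all genes of a fit, and an adjusted p below 0.05 was a call. Of the 42 genes, 37 passed the QuantSeq filter (not S100a8, S100a9, Alas2 and Ms4a2; Ahsp unmatched) and 39 the RNA-seq filter (not Fcgr1 and Ms4a2). A gene can pass only through the group where it is high. Folds against an empty group are bounds at 3 counts per empty library. SE of fitted folds, exact counting intervals (95%) and mean ± SD over libraries are given. The fits were tested on simulated data. DESeq2 1.42.0, no filter, library sizes without TMM, fits on only the compared groups, transcript sums and leaving out each library were alternatives. Named genes are all members, with values per library for most of those called or defining a cell type. Not every group or kit is given for each, and the called genes Lgmn, Fcgr3 and Car2 have no such values here. From other lists, counts and a few genes are given. Likeness is the Pearson r of log2(CPM + 1). The 42 genes and the other lists were chosen with earlier results of these data known. Cd163, Pax5, H2-Aa, Ly6c2, Cd247 and Trbc2 are named because they were called, which was seen in the values. Some genes of the other lists and of the likeness ranking are not reported here.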

Additional observations from a re-analysis of the deposited data

Results flagged for a closer look

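In the group of 4 QuantSeq TH2 libraries, 9 genes had 1 library far above the other 3 by Dixon's criterion. Chance meets it in about 1 of 20 groups of continuous values, but where 3 libraries have no count a single count always meets it, so that rate does not apply to these sparse genes. Apoe stood at 37.46 CPM (113 counts) and Cd68 at 6.962 CPM (21 counts) in replicate 3. Hba-a1 stood at 25.35 CPM (65 counts) in replicate 1, and Cpa3 at 15.52 CPM (46 counts) in replicate 2. The other 5 rested on 1 or 2 counts and are no sign of a deviating library: C1qc at 0.7799 CPM, Spic at 0.3899 CPM and Cd5l at 0.3899 CPM in replicate 1, Hdc at 0.3315 CPM in replicate 3 and Vcam1 at 1.081 CPM in replicate 4.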

How the results depend on the processing

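No paired analysis was possible because the labels give only serial sample numbers and no replicate, animal or batch that groups share. No gene reversed its direction under any alternative run. The summed CPM depended more on the choices made. With transcript sums in RNA-seq, 15 sums moved. Without Ctsb, Ctss and Cst3, 13 moved and 1 held, and without the 4 globin genes 11 moved and 3 held. Without the most abundant member 17 moved and 11 held. With TMM library sizes 5 moved and 37 held, and without mitochondrial genes in the total 6 moved and 36 held. The number of the 42 genes called in TFH CXCR5hi against TH2 was 3 with only those groups fitted. For TFH2 against TFH at CXCR5hi it was 4 with DESeq2 and 5 with only those groups, at CXCR5int 2 with DESeq2, and at CXCR5lo 1 with DESeq2 and 1 without the filter. Leaving out each library in turn gave 12 to 17 calls for TFH2 CXCR5hi against TH2, 9 to 11 for TFH CXCR5hi against TH2, and, for TFH2 against TFH, 0 to 4 at CXCR5hi, 0 to 2 at CXCR5int and 0 to 2 at CXCR5lo. At CXCR5hi the count was 0 without TFH CXCR5hi replicate 1 or 2, 1 without replicate 3 and 4 without either TFH CXCR5int library. The range was 0 to 1 for Bcl6KO against TH2, and 0 for Il4KO against TH2, both TFH2 gate comparisons, the TFH gate comparison and the gate difference. In RNA-seq it was 23 to 24 for TH2 and 15 to 18 for TFH against naive cells, and 24 to 27 for TFH against TH2. Where an arm was left with 1 library, that library was assumed to vary like the other groups. Of the calls of single genes, 87 held and 5 were lost with DESeq2, 73 held and 5 were lost with only the compared groups, and 982 held and 52 were lost over all fits without 1 library. The cause of the lost calls was not tested. At the depth of the QuantSeq libraries, differences between genes of a few counts cannot be resolved.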
